A study of Oryza sativa Japonica Group with 12 samples.

Results

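The genes described here are 160 rice genes whose transcripts were lower in piperonylic acid-treated roots than in mock roots 6 h after a spray and higher 24 h after it. They were chosen from the measured values: among 35667 identifiers that start with Os, 19207 averaged 10 or more normalised counts across the 12 samples, and a member had a log2 difference between treated and mock roots of at most -0.5 at 6 h, with all 3 treated libraries below all 3 mock libraries, and of at least 0.3 at 24 h. Each difference is between group means of log2(normalised count + 2), which understates the fold change of genes with few counts. The 16460 identifiers below that mean could not be members. Because both treatment differences chose the members, their sizes, and the counts of members called in tests of those differences, are given as a description and support nothing.

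The data are QuantSeq libraries from roots of Nipponbare rice seedlings, whose reads come from the 3′ ends of polyadenylated transcripts. Plants were moved to tubes 5 days after germination, grown at 28 °C with 12 h of light, and sprayed on the leaves 13 days after the move. The spray held 300 µM piperonylic acid and 0.1% Tween 20, or was a mock solution that the labels call corresponding. The 4 groups were mock and treated roots at 6 h (13 days after transplanting) and at 24 h (14 days), with 3 samples each, and every sample pooled the roots of 4 plants. The source names count the times from a second treatment and the series title speaks of roots inoculated with the nematode Meloidogyne graminicola, while the protocols describe 1 spray and no inoculation. The labels give an inoculation or a further spray to no single group.

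Piperonylic acid blocks cinnamate 4-hydroxylase. That enzyme stands near the start of phenylpropanoid metabolism, which supplies plants with lignin precursors, flavonoids and many defence compounds. Plants keep sets of genes, among them those of DREB, WRKY and C2H2 zinc finger transcription factors, whose transcripts can rise quickly after cold, wounding or other stress and decline again within hours. DREB factors bind promoters of cold and drought response genes, and WRKY factors act widely in defence. The files give identifiers without gene names. The reference matched 1 of 35833 identifiers, so members are given by identifier and no function is assigned to them. The gene and marker lists used below hold recalled loci that no file used here annotates, so a list's name gives its intended content only.

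Recovered reads ranged from 6302056 to 10254382 in 11 libraries and reached 20301774 in replicate 1 of the 24 h mock group. A gene with few reads is measured with a counting error that these depths set. In the 6 h treated group, replicate 3 lay closer to mock roots over the members than the others did. In the 24 h mock group, replicate 2 stood apart: the chi-square of its counts over genes was 24.5 and 18.3 per degree of freedom against replicates 1 and 3, while every other pair of replicates had at most 9.63. Counts that these libraries move are given also without them. Nothing in the labels says that the pools came from separate cultures or days, so p-values measure the spread between these samples. The 4 listed root markers summed to between 38506 and 55884 normalised counts in a library, and the 10 listed leaf markers to between 483 and 1953. Leaf marker sums had their lowest median, 527, in treated roots at 6 h, where they ranged from 483 to 728, against 728 to 1953 in mock roots at that time and 549.7 to 1691 in both groups at 24 h. Of the 10, 9 had a negative treatment difference at 6 h, 0 were at 0 in all samples and 0 were members. Whether traces of shoot tissue contribute to the 6 h differences of the members was not tested.

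Of the 19207 genes, 875 passed the 6 h part of the rule, a background of 4.56%, and 9.73% had all treated below all mock libraries at 6 h whatever the size. The 875 became 1618 when mock replicate 2 of 6 h was left out, and 1335 when treated replicate 3 was. Fewer libraries separate more easily, and leaving out any other single library of 6 h gave 920 to 1200. At 24 h, whose samples that part did not use, 160 of the 875 were higher by at least 0.3 and 152 were lower by at least 0.3. These are 18.3% and 17.4% of the 875, against 7.78% and 10.2% of all genes considered. The median 24 h difference of the 875 was 0.00. Without replicate 2 of the 24 h mock group the shares were 23.2% and 13.2%, and without replicate 3 of that group they were 17.3% and 23.8%. The lower share thus ranged from below to above the higher one, depending on which 24 h mock library was left out.

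**Figure D1:**
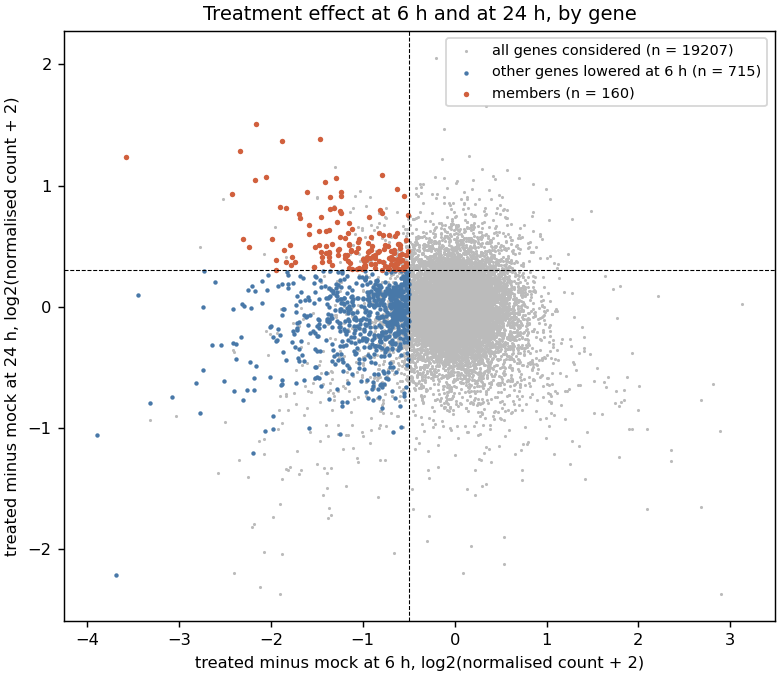
Each point is a gene, with the difference between treated and mock roots at 6 h on the horizontal axis and at 24 h on the vertical axis, both as differences of mean log2(normalised count + 2) over 3 libraries a group. Dashed lines mark -0.5 and 0.3. The 160 members fill the upper left corner by construction, and the other 715 genes lowered at 6 h spread on both sides of 0 at 24 h.

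The member values at 6 h ran from -3.57 to -0.51 with a median of -1.02, which was -1.26 without treated replicate 3, and those at 24 h from 0.30 to 1.51 with a median of 0.46. At 6 h 81 members were lower by at least 1 log2 unit and 8 by at least 2, while at 24 h 10 were higher by at least 1 and 55 lay under 0.4. Just inside the 24 h limit were Os11g0114300, Os02g0738600 and Os01g0558700, at 0.301, 0.306 and 0.309, and just outside it were Os04g0685700, Os01g0298301 and Os01g0835700, at 0.296 each. Just inside the 6 h limit were Os12g0626200, Os06g0724800 and Os06g0655500, at -0.507, -0.509 and -0.525, and just outside it were Os06g0224650, Os01g0829400 and Os07g0162450, at -0.493, -0.490 and -0.487. The member means over 12 samples ran from 10.2 to 2523 normalised counts, with a median of 104 against 114 for all genes considered. The mean was under 50 in 58 members, and 8 members reached the minimum of 10 only with the 6 h mock libraries.

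The largest gap between the treatment differences at 24 h and at 6 h was in Os09g0457900. Its normalised counts at 6 h were 791, 1019 and 1651 in mock roots and 19.7, 69.7 and 512 in treated roots, for replicates 1, 2 and 3. At 24 h they were 4.87, 1.26 and 0.957 in mock roots and 5.56, 10.4 and 7.24 in treated roots. The transcript was abundant in mock roots at 6 h and nearly gone at 24 h, and treated replicate 3 lay closest to the mock libraries at 6 h. The treatment difference was -3.57 at 6 h and 1.24 at 24 h, the latter between groups with means of 2.36 and 7.73 normalised counts.

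Os01g0186900 was among the members with the highest levels, and its treatment difference exceeded 1 log2 unit at both times. Its 6 h counts were 5387, 6207 and 8059 in mock and 1239, 2171 and 4746 in treated roots. Its 24 h counts were 173, 312 and 186 in mock and 550.2, 592 and 561 in treated roots. The groups did not overlap at either time, and the 3 treated libraries at 24 h had a mean of 568 ± 21.9 (SD, n = 3). The differences were -1.47 and 1.39.

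The neighbouring identifiers Os03g0820300 and Os03g0820400 showed the pattern together. For Os03g0820300 the 6 h counts were 885, 1158 and 1531 in mock and 94.4, 216 and 588 in treated roots, and the 24 h counts were 42.9, 45.4 and 24.9 and 80.6, 107 and 89.0. For Os03g0820400 they were 1914, 2328 and 3266 and 199, 361 and 1287 at 6 h, and 47.8, 52.9 and 42.1 and 93.1, 112 and 74.5 at 24 h. In both, treated libraries lay below every mock library at 6 h and above every mock library at 24 h. The differences were -2.33 and 1.28 for the first, and -2.43 and 0.93 for the second. The first is the single member among the 4 identifiers listed for C2H2 stress zinc fingers.

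Among 10 identifiers listed for DREB factors, 7 had enough counts and 2 were members, Os09g0522000 and Os09g0522100, which are also neighbours. Os09g0522000 had 2731, 3406 and 4312 normalised counts in mock and 348, 617 and 2056 in treated roots at 6 h, and 34.6, 31.5 and 39.2 against 79.2, 135 and 102 at 24 h. Os09g0522100 had 427, 359 and 413 against 37.4, 75.7 and 228 at 6 h, and 2.92, 1.26 and 1.91 against 5.56, 6.93 and 6.21 at 24 h, where every library was below 10. The next identifier, Os09g0522200, is on the same list and was not a member: its 6 h counts were 1181, 1489 and 1849.7 in mock and 153, 236 and 879.8 in treated roots, a difference of -2.22, but its 24 h counts of 45.8, 49.1 and 50.7 and 47.2, 58.9 and 40.3 gave -0.01. The counting tool is not given in the sources used here, so reads of near-identical copies may be split among them. Of the 7, 5 passed the 6 h part of the rule, and at 24 h 2 were higher and 1 lower by at least 0.3.

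Of 25 identifiers listed for WRKY factors with enough counts, 1 was a member, Os08g0386200, with 599, 663 and 745 normalised counts in mock and 148, 222 and 438 in treated roots at 6 h, and 77.0, 84.4 and 84.2 against 98.7, 113 and 108 at 24 h. Of these 25, 8 passed the 6 h part, and at 24 h 3 were higher and 11 lower by at least 0.3. Replicate 2 of the 24 h mock group was the highest mock library in 9 of these 11, and without it 6 were higher and 1 lower, and 2 met the rule. JAZ repressors, the negative regulators of jasmonate signalling, held 0 members among 12, with 7 past the 6 h part and 0 higher and 5 lower at 24 h. That same library was the highest mock library in all 5, and without it 4 of the 12 were higher, 0 were lower, and 4 met the rule. The absence of JAZ genes from the members therefore did not hold without this library, and the whole set then grew from 160 to 204. The lists were not recounted without any other library. Heat shock proteins held 0 members among 11, since 8 were higher at 24 h but 0 passed the 6 h part. There were also 0 members among 6 stress NAC factors, of which 1 met the rule without that library, and among 6 type-A response regulators, 7 genes of dividing cells and 9 circadian clock genes. The lists named here thus supplied 4 of the 160 members, and the others lie outside them.

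**Figure D2:**
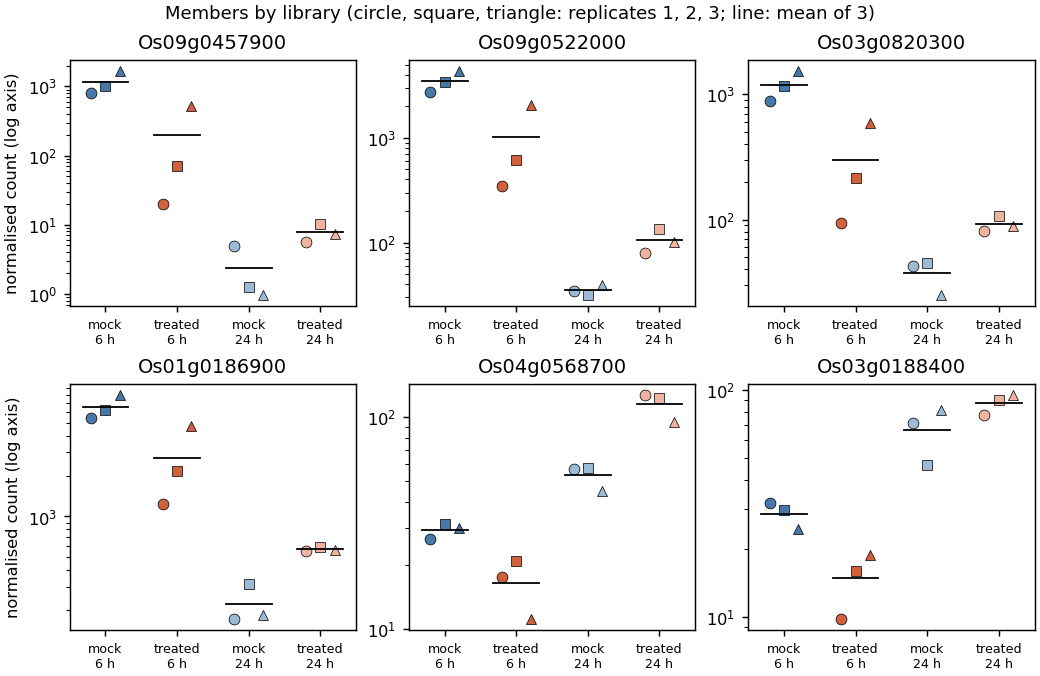
Normalised counts on a log axis in the 12 libraries for 6 members, with symbols for replicates 1, 2 and 3 and a line at each group's mean of 3. In Os09g0457900, Os09g0522000, Os03g0820300 and Os01g0186900 mock roots had the highest counts at 6 h and the lowest at 24 h, with treated roots between, while Os04g0568700 and Os03g0188400 had their highest group mean in treated roots at 24 h.

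Whether the members themselves differed between 24 h and 6 h was tested on the average of mock and treated roots. This contrast is orthogonal to both treatment differences, so the rule did not use it, although a member needed enough counts in mock roots at 6 h to be lower there in treated roots, and genes with few reads at 6 h could pass less easily. Of the 160 members, 95 fell with time and 24 rose at an adjusted p under 0.05 by limma, while 41 were not called. The background was 6.74% of 19207 genes lower and 49.8% higher, beside 59.4% and 15% of the members. Without treated replicate 3 of 6 h, 92 members fell and 21 rose (background 6.2% and 46.5%). Without mock replicate 2 of 24 h, 93 fell and 25 rose (background 6.99% and 48%). Leaving out the 8 members that reached the minimum mean only with the 6 h mock libraries, 90 of 152 fell and 24 rose. The median time effect was -1.02 in the members and 0.29 over all genes, and the deposited values were scaled separately within each time. With 1 size factor over all 12 samples the shift was 0.01, the members' median was -1.29, and 103 members fell and 12 rose, against 13.1% and 12.5% of all genes. TMM scaling gave 103 and 12 (background 13.3% and 12.2%), edgeR 102 and 12 (background 13.7% and 11.9%) and DESeq2 100 and 12 (background 12.2% and 11.4%).

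Other genes lowered at 6 h also included many that fell with time. Of the 152 that were also lower at 24 h, 65 or 42.8% fell, and of the 563 that were between the limits at 24 h, 210 or 37.3% fell, with medians of -0.48 and -0.10. Differences between these gene groups were not tested. Of the 95 members that fell, 11 had a mean under 10 normalised counts at 24 h, so their later level was near the minimum of the filter. The times also differ in the age of the plants and may differ in the hour of the day, and these cannot be told apart from the time since the spray. Of the 9 listed clock genes with enough counts, 8 fell and 1 rose with time by limma, and whether the hour of the day contributes to the members' time effects was not tested. In whole roots, fewer cells of a type and less RNA per cell cannot be told apart either.

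**Figure D3:**
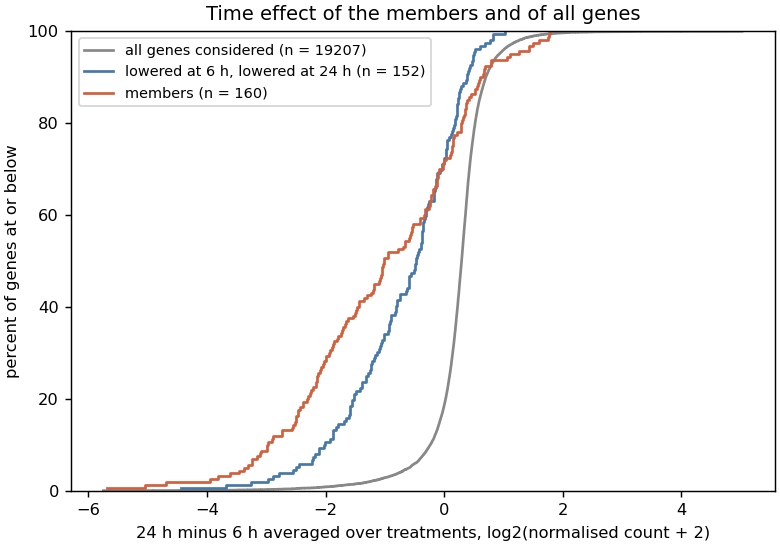
Cumulative percent of genes against the time effect, the log2(normalised count + 2) at 24 h minus that at 6 h averaged over mock and treated roots. The curve of the 160 members has its median at -1.02 and lies left of that of all 19207 genes, whose median is 0.29, over the lower part of its range, and the 152 genes lowered at both times have a median of -0.48.

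The largest falls among called members were in Os09g0457900, Os09g0522100, Os09g0522000, Os03g0820400 and Os03g0678800, whose time effects were -5.69 ± 0.70 (SE), -5.05 ± 0.34 (SE), -4.70 ± 0.40 (SE), -3.95 ± 0.42 (SE) and -3.82 ± 0.36 (SE). Their limma adjusted p ranged from 2.72e-07 to 0.000196, with n = 12 samples. Os03g0678800 had 429.8, 562 and 597 normalised counts in mock and 61.0, 115 and 346 in treated roots at 6 h, and 10.2, 17.6 and 17.2 against 18.1, 19.6 and 21.7 at 24 h. In it, treated roots also stood above their own 24 h level at 6 h in every library. Among the members with the highest means, Os05g0497300 and Os06g0683400 had time effects of -1.50 ± 0.24 (SE) and -2.99 ± 0.29 (SE), with limma adjusted p of 0.000671 and 4.5e-05.

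Os05g0497300 had the highest mean of all members. At 6 h its counts were 4272, 5016 and 5419 in mock and 1623, 2572 and 3731 in treated roots, which did not overlap. At 24 h they were 779, 1674 and 963 and 1391, 1457 and 1375, where mock replicate 2 lay above every treated library. Its differences were -0.97 and 0.38. The other members with high means, Os07g0569100, Os04g0667600 and Os01g0934100, had time effects of -1.19 ± 0.19 (SE), -0.96 ± 0.17 (SE) and -1.86 ± 0.27 (SE), with limma adjusted p from 0.000416 to 0.00102 (n = 12).

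The members that rose with time had a different shape. Os04g0568700 had 26.8, 31.4 and 30.1 normalised counts in mock and 17.7, 20.9 and 11.2 in treated roots at 6 h, and 57.0, 58.0 and 45.0 against 128, 124 and 95.2 at 24 h. Os03g0161900 had 48.7, 52.7 and 56.4 against 26.6, 38.8 and 35.5 at 6 h, and 111, 116 and 90.9 against 168, 204 and 262 at 24 h. In both the groups did not overlap at either time, and the 24 h treated libraries were the highest of the 12. The time effects were 1.75 ± 0.16 (SE) and 1.78 ± 0.13 (SE), with limma adjusted p of 3.15e-07 and 3.4e-08 (n = 12), and with 1 size factor over 12 samples they were 1.47 and 1.49. The other 3 largest rises, Os03g0188400, Os06g0694200 and Os03g0416500, were 1.79 ± 0.17 (SE), 1.60 ± 0.20 (SE) and 1.49 ± 0.22 (SE), with limma adjusted p from 7.43e-07 to 5.47e-05. With 1 size factor over 12 samples these 3 were 1.51, 1.33 and 1.22.

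Members that fell with time had a median treatment difference of -1.32 at 6 h and 0.48 at 24 h, with a median mean of 250.1 normalised counts. Members not called had medians of -0.71 and 0.39 at a mean of 23.4, and members that rose had -0.64 and 0.43 at a mean of 51.6. These classes are from the deposited values, scaled within each time, where 49.8% of all genes rose. With 1 size factor over 12 samples 12 members or 7.5% rose, against 12.5% of all genes. Across the 160 members the correlation of the 6 h difference with the time effect was 0.78 (Pearson) and 0.78 (Spearman), across the 875 genes lowered at 6 h it was 0.69 and 0.61, and across all 19207 genes it was 0.38 and 0.23. These correlations are over genes measured in the same 12 libraries and are given as a description. In the members that fell, mock roots changed by a median of -2.87 from 6 h to 24 h and treated roots by -1.06, and in those that rose by 0.19 and 1.32. Over all 19207 genes, on the same separately scaled values, the medians were 0.30 in mock and 0.29 in treated roots. The rule favours genes whose mock roots were high at 6 h and low at 24 h, and the separate scaling shifts all these medians. The lower mock median of the members that rose is therefore no result. The rule fixes that the change in mock roots lies below that in treated roots in each of the 160, so the gap between the mock and treated medians of the members is no result.

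**Figure D4:**
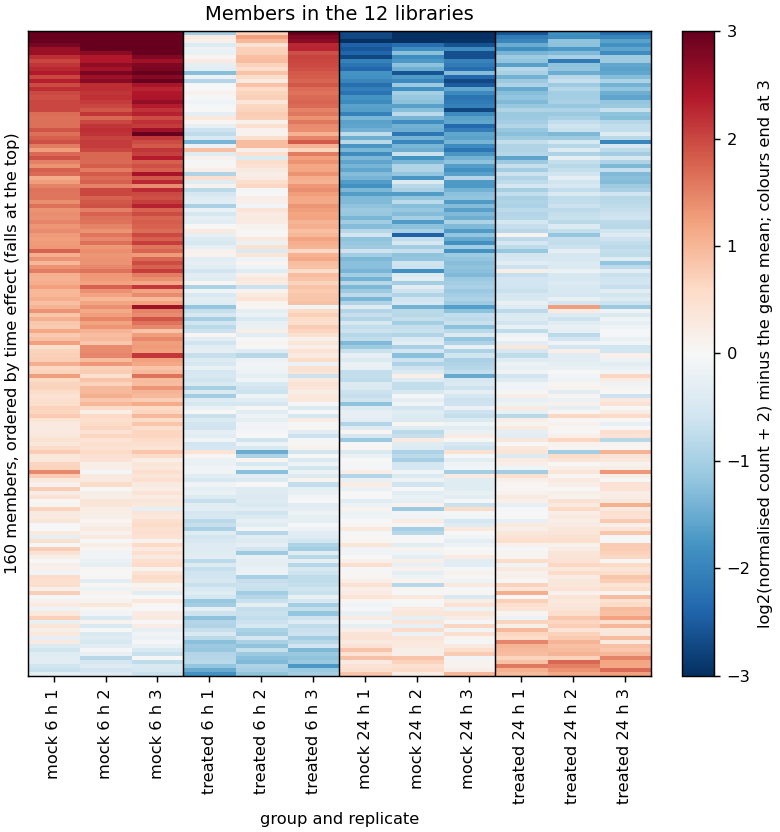
Colours give the log2(normalised count + 2) of each of the 160 members in the 12 libraries, minus the mean of the gene over the libraries, with members in rows ordered by their time effect. In the upper rows, the members with the largest falls, the 3 mock libraries at 6 h are high, treated replicate 3 at 6 h lies nearer to them than replicates 1 and 2, and the 24 h libraries are low. In the lowest rows the treated libraries are lowest at 6 h and highest at 24 h.

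The 3 treated libraries at 6 h did not carry the pattern equally. Over all members, the median difference from the mean of the mock libraries was -1.39 in treated replicate 1, -1.08 in replicate 2 and -0.60 in replicate 3. Replicate 3 had the highest treated value at 6 h in 113 of 160 members, and replicate 1 had the lowest in 106. Mock replicate 3 likewise had the highest mock value at 6 h in 105, and mock replicate 1 the lowest in 102. Treated minus mock libraries of the same title number had median differences at 6 h of -1.28, -1.10 and -0.77, and the rule makes each of them negative in all members.

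The treated libraries at 6 h were furthest apart in the members that fell with time. In those 95, the median differences from the mock mean at 6 h were -1.89, -1.44 and -0.55 in treated replicates 1, 2 and 3, and replicate 3 was the highest treated library in 91. In the 41 members not called they were -0.74, -0.70 and -0.62, and in the 24 that rose -0.73, -0.69 and -0.69. A library score, the mean over members of the log2 value minus the gene mean, showed the same in the 95: it was -0.33, 0.19 and 1.08 in the treated libraries and 1.44, 1.68 and 1.92 in the mock libraries at 6 h. The group values were 0.31 ± 0.71 and 1.68 ± 0.24 (SD, n = 3 each), while at 24 h they were -0.70 ± 0.07 in treated and -1.29 ± 0.14 in mock roots (SD, n = 3 each). In the 24 that rose, the 6 h scores were -0.83 ± 0.04 in treated and -0.11 ± 0.07 in mock roots (SD, n = 3 each).

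**Figure D5:**
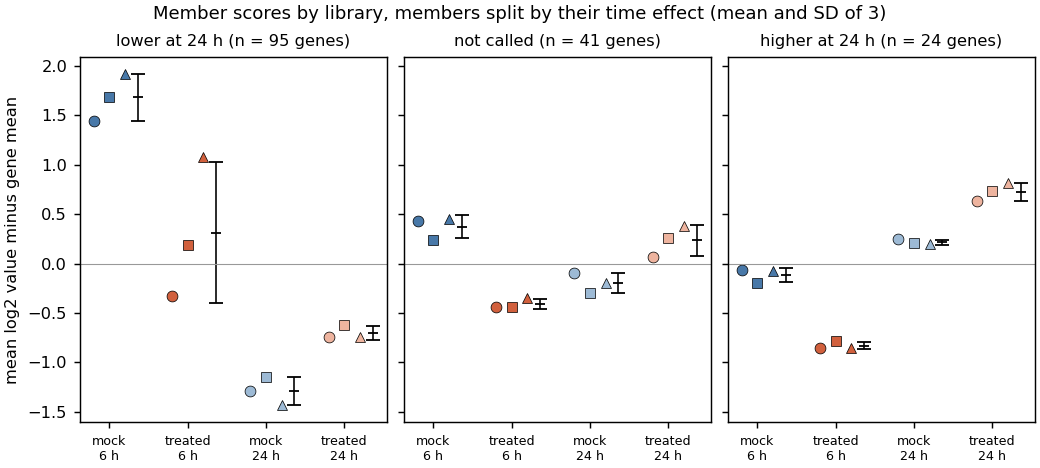
Scores of the 12 libraries, each the mean over members of log2(normalised count + 2) minus the gene mean, for the 95 members that fell with time, the 41 not called and the 24 that rose. The split is by limma on the deposited values, scaled within each time. Symbols are replicates 1, 2 and 3, and bars beside them are the mean and SD of 3. In the 95, the treated libraries at 6 h run from -0.33 to 1.08, while in the other panels they lie within a narrow band.

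At 24 h the groups were closer together. All treated libraries lay above all mock libraries in 73 of the 160 members, beside a background of 6.17% of all genes, or 3.22% that also had a difference of at least 0.3, from which nothing is read because the rule used this contrast. Leaving out each 24 h library in turn, between 123 and 142 members kept a difference of at least 0.3, and at least 158 stayed above 0. Mock replicate 2 of 24 h was the highest mock library in 70 members, and without it the treated libraries lay above the mock libraries in 104. Fewer libraries separate more easily, and without any other single library of 24 h this held in 80 to 98 members. No share over all genes was computed for these left-out counts. By limma 26 members were called lower at 6 h (background 0.901%), 0 were called higher at 24 h (background 0.0573%) and 18 had a higher effect at 24 h than at 6 h (background 0.208%). At an unadjusted limma p under 0.05 there were 149, 41 and 155, counts for which no share over all genes was computed. For the 24 h count of 0, edgeR gave 2 (background 0.0781%) and DESeq2 gave 3 (background 0.156%). At 6 h edgeR called 22 (background 0.916%) and DESeq2 75 (background 2.38%), and in the difference they called 14 (background 0.167%) and 68 (background 0.958%). These counts describe members chosen on the same differences, and no support is drawn from them.

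The calls at 6 h depended on single libraries and on pairing. The main fit used no pairing, and the title numbers were taken to pair the samples at 6 h only from correlations in these same data. With a replicate block by the title numbers 84 members were called at 6 h and 74 in the difference (background 2.86% and 1.27%). This block paired the 24 h samples by title number too. With the numbers of the source names 5 and 5 were called (background 0.234% and 0.0469%). At 6 h the source names give number 1 to treated replicates 1 and 2 and number 2 to treated replicate 3. Mock replicate 3 then has no treated partner, so this block is not a pairing of the samples. Without treated replicate 3 of 6 h, 94 and 93 members were called (background 2.81% and 1.71%). Leaving out mock replicate 3 or treated replicate 1 at 6 h, limma called 0 at 6 h (background 0.00521% and 0.0312%). In the difference it then called 6 and 14 (background 0.0781% and 0.115%). At an unadjusted limma p under 0.05 the 6 h counts were then 128 and 134, with no share over all genes computed. The members called at 24 h by edgeR or DESeq2 are named here after their values were seen: Os03g0161900 and Os04g0568700 by both, and Os05g0561600 by DESeq2. All 3 are members that rose with time, and Os05g0561600 had 1053, 964 and 968 normalised counts in mock against 1585, 1441 and 1451 in treated roots at 24 h, after 592, 624 and 682 against 369.8, 336 and 525 at 6 h.

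Some of the named members had few reads. Os03g0640000 had 31.7, 34.2 and 47.0 normalised counts in mock and 5.90, 6.97 and 14.9 in treated roots at 6 h, and 2.44, 1.26 and 2.87 against 11.1, 8.08 and 7.24 at 24 h, where 1 read is worth between 0.487 and 1.39. Its groups did not overlap at either time, and it reached the minimum mean only with the 6 h mock libraries. Os08g0443800 had 60.9, 84.1 and 100.6 against 2.95, 19.9 and 41.1 at 6 h, and 1.46, 0 and 2.87 against 4.17, 2.31 and 2.07 at 24 h, where the groups overlapped at a few reads each. Os08g0443800 too reached the minimum mean only with the 6 h mock libraries. Os07g0418500 had 9.75, 3.78 and 2.87 in mock and 9.73, 34.6 and 5.17 in treated roots at 24 h, with the highest value in treated replicate 2 and overlapping groups, and its difference was 1.07. Its limma time effect of -1.24 ± 0.43 (SE), adjusted p 0.026 (n = 12), lost its call by edgeR at an adjusted p of 0.0606 and in 7 of the 12 fits that left out a library. Os02g0193300 had 8.28, 11.3 and 2.87 against 15.3, 15.0 and 18.6 at 24 h, after 128, 116 and 145 against 30.5, 49.8 and 88.7 at 6 h. In its case the groups were apart at both times.

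Members stood next to each other in the order of the 19207 identifiers in 8 places, which involved 14 members. The longest run, named after its values were seen, was Os02g0584700, Os02g0584800, Os02g0584900 and Os02g0585100, on chromosome 2 as the identifiers number it. Their 6 h differences were -1.37, -1.70, -0.77 and -1.45, and their 24 h differences 0.63, 0.76, 0.47 and 0.45. Os02g0584700 had 2079, 2094 and 2665 normalised counts in mock and 499, 799 and 1686 in treated roots at 6 h, and 168, 165 and 126 against 236, 236 and 238 at 24 h. Os02g0584900 had 71.8, 65.6 and 64.9 against 33.4, 33.8 and 51.4, and 49.7, 35.3 and 30.6 against 59.7, 50.8 and 49.7. Os02g0584700, Os02g0584800 and Os02g0585100 fell with time, at -2.88 ± 0.26 (SE), -3.16 ± 0.33 (SE) and -2.08 ± 0.26 (SE), with limma adjusted p of 2.71e-05, 8.15e-05 and 0.000183 (n = 12), and Os02g0584900 did not pass, at -0.18 ± 0.15 (SE).

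Neighbours did not always share the time effect. Os03g0188400 rose with time, at 1.79 ± 0.17 (SE), from 31.7, 29.6 and 24.4 normalised counts in mock roots at 6 h to 71.6, 46.6 and 81.3 at 24 h. Os03g0188500, named for its place, fell, at -1.10 ± 0.21 (SE) with a limma adjusted p of 0.00183 (n = 12), from 1951, 2589 and 3433 to 803, 548 and 698 in the same libraries. Both were lower in treated roots at 6 h, at -0.89 and -1.33. Whether counting used the strand is not given in the sources used here, so reads of overlapping or opposite neighbours may not be separated. By the chromosome in the identifier, members made up between 0.294% of the genes considered on chromosome 11 and 1.18% on chromosome 5, against 0.833% over all.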

How the data were processed

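Root samples of 12 pools of plants were measured by 3′ mRNA sequencing. The authors deposited 1 table for all samples with a normalised signal per gene, read counts divided by size factors. STAR 2.6.1d, Trimmomatic 0.38, FastQC 0.11.8 and DESeq2 appear in the submitters' processing notes, with no role or order. For the genome build and the tool that counted reads, nothing is given in the sources used here. The size factors were set within each time: those recomputed within a time from recovered reads differed from them by at most 6.11e-07%, and those over 12 samples by up to 11.2%. Whole reads were recovered from the steps of the values, with at least 99.9853% of values whole within 0.01 in each library. The lowest depth was 6302056 reads and the highest 20301774, with 1 read worth 0.487 to 1.39 normalised counts.

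Genes with a mean of at least 10 were kept, 19207 of 35667. The main test was limma 3.58.1 (R 4.3.3) on log2(value + 2) in 1 fit over the 4 groups, with Benjamini-Hochberg adjustment over all genes and a threshold of 0.05. As alternatives the reads were tested with edgeR 4.0.16 and DESeq2 1.42.0, and other pseudocounts, filters, scalings, limits of the rule, replicate blocks and left-out libraries were tried. On simulated reads of 19207 genes the limma test of the time effect recovered 84% of 100 genes changed by 1 log2 unit and 97% of 100 changed by 2, and called 9 unchanged genes. The simulated libraries were scaled together, with no treatment effect and no shift between the times. These rates therefore do not cover the separate scaling of the times in the deposited values. The planned promoter motif search was not run because no promoter sequences were used here. Titles and source names give different replicate numbers to 3 treated samples, and the titles were used. At each time the source names repeat a number among the treated samples, so they do not pair them with the mock samples. Deviations from the group mean of same-numbered mock and treated libraries correlated at 0.305, 0.288 and 0.126 at 6 h. Libraries with different numbers correlated at -0.295 to 0.0341, so the title numbers were taken to pair the samples there. Deviations within a group of 3 sum to 0, so these values depend on each other, and they do not establish a pairing. At 24 h the correlations of same-numbered libraries were -0.187, 0.0505 and 0.0212, and those of the others ran from -0.163 to 0.208. The block by title numbers nonetheless paired the 24 h samples too.

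The members and gene lists were chosen with earlier results of these data known. Members named singly have the 8 largest differences between the treatment effects at the 2 times, the 8 largest values of the smaller of the effects, the 6 highest means, the 6 largest 24 h effects without overlap, a place on a list, the 5 largest rises or falls with time, or a place next to a limit.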

Additional observations from a re-analysis of the deposited data

Results flagged for a closer look

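The treatment effect at 24 h was higher than at 6 h in 18 members at an adjusted p under 0.05 in limma's test of the difference over 19207 genes (background 0.208%). The rule chose members on the values from which that difference is made, so the count is a description and no single member is singled out by it. In 73 members every treated library lay below every mock library at 6 h and above every mock library at 24 h, and for these as a set the difference was not tested. Of all genes considered, 6.17% had every treated library above every mock library at 24 h. The 73 became 104 without replicate 2 of the 24 h mock group, and 80 to 98 without any other single library of 24 h. Fewer libraries separate more easily, and no share over all genes was computed for these left-out counts, so nothing is read from them.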

How the results depend on the processing

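The number of members falling with time, 95 of 160 (background 6.74%), was 77 of the 102 left with a minimum mean of 50 (background 7.25%). It was 90 of 152 without members that pass the filter only with the 6 h mock libraries (a setting chosen after seeing the data). In the other settings tried it was between 90 and 103 (background 4.5% to 13.7%). The number rising, 24 of 160 (background 49.8%), was 12 of 102 with a minimum mean of 50 (background 62.6%). It was 12 of 160 with 1 size factor over 12 samples, with TMM scaling, with edgeR and with DESeq2 (background 11.4% to 12.5%). When 1 library was left out it was 20 to 27 (background 46.4% to 48.1%). With the replicate block on the time effect, by the title numbers, 95 fell and 22 rose (background 6.5% and 48.4%). This block changed the time call of 0 of the 22 members listed last. The 160 members became 102 with a minimum mean of 50, 64 with a 24 h limit of 0.5, 81 with a 6 h limit of -1, and 151 to 241 when 1 library was left out, the highest without treated replicate 3 of 6 h. Of the genes lowered at 6 h, 18.3% were higher at 24 h, and 15.4% with a pseudocount of 8, with 14.3% to 23.2% when 1 library was left out. The share lower at 24 h, 17.4%, was 13.9% with a pseudocount of 8, 13.6% with a minimum mean of 50, 22.3% with no filter, and 13.2% to 24.6% when 1 library was left out. Of the 160, limma called 26 at 6 h (background 0.901%), and 17 when no filter was used (background 0.372%). There were 84 with the replicate block by title numbers and 5 with the block by source-name numbers (background 2.86% and 0.234%). DESeq2 called 75 (background 2.38%), and limma 0 to 94 when 1 library was left out (background 0.00521% to 2.81%). At 24 h limma called 0 (background 0.0573%), with 41 at an unadjusted p under 0.05, for which no share over all genes was computed. It called 2 with a pseudocount of 8 (background 0.0781%) and 0 under either block (background 0.0573% and 0%). When 1 library was left out it called 0 to 5 (background 0.00521% to 0.0885%). By edgeR there were 2 (background 0.0781%) and by DESeq2 3 (background 0.156%). The difference was called in 18 (background 0.208%). It was called in 74 with the replicate block by title numbers and in 5 with that by source-name numbers (background 1.27% and 0.0469%). DESeq2 called 68 (background 0.958%), and limma 6 to 93 when 1 library was left out (background 0.0573% to 1.71%). The causes of these moves were not tested. Of 478 values of the time effect for 22 members, those named for their differences, mean, time effect or place on a list, 470 kept their direction and call, and the other 8 kept their direction and lost the call, all in Os07g0418500, whose time effect was -1.24; the 6 members named for a place next to a limit were not included. Genes with few reads limit the 24 h values, since 12 members had a mean under 10 over both 24 h groups.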
